A study of Mus musculus with 3 samples.

Results

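Cells that carried both reporters of a mouse molar library, tdTomato and GFP, were compared with cells of the same library that carried GFP alone. Of 15912 barcodes in the 3 libraries of the series, 6693 belonged to the library used here, and 4768 of these were kept as cells with at least 500 detected genes, at most 15% mitochondrial UMIs (unique molecular identifiers, 1 per captured transcript) and no UMI of the blood cell gene Ptprc, the endothelial gene Pecam1 or the epithelial gene Epcam. Doubly marked cells had at least 5 UMIs of each reporter transcript and numbered 421. GFP-only cells had at least 5 GFP UMIs and none of tdTomato and numbered 1180. A further 703 cells with GFP had 1 to 4 tdTomato UMIs and entered neither group, and 820 tdTomato-only cells (at least 5 tdTomato UMIs, no GFP) served as a reference. All cells came from mandibular molars of Col1a1-GFP; Cxcl12-creER; R26R(tdTomato/+) mice at postnatal day 25, whose pulp and periodontium were digested and sorted for GFP, tdTomato or both before droplet 3′ sequencing. The labels used here give neither the time of tamoxifen nor the number of mice, and there was 1 library, so no comparison has a replicate and none was tested. Intervals in parentheses are exact 95% intervals for counting error only.

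In these mice GFP follows the promoter of Col1a1, the main collagen gene of bone, dentin and ligament, and is made while that promoter is active. The Cre recombinase follows Cxcl12, a chemokine gene of stromal cells, and works only after tamoxifen. Once it has acted, tdTomato stays on in the cell and its descendants, whether or not Cxcl12 is still made. Dentin is made by odontoblasts, whose hallmark protein is dentin sialophosphoprotein (Dspp). Bone and cementum are made by osteoblasts and cementoblasts, which secrete bone sialoprotein (Ibsp), and the tooth is tied to bone by ligament fibroblasts, which secrete periostin (Postn) and asporin (Aspn).

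The cells were chosen by their reporter counts, which are given as a description only. In doubly marked cells tdTomato ran from 5 to 111 UMIs with a median of 24, and median GFP was 26 UMIs against 25 in GFP-only cells. Just inside the limit, 12 doubly marked cells had exactly 5 tdTomato UMIs, while just outside it 26 GFP-positive cells had exactly 4 and 418 had exactly 1. For GFP, 17 doubly marked and 36 GFP-only cells had exactly 5 UMIs, and 24 and 68 cells with the matching tdTomato values fell short with exactly 4. The doubly marked cells were 18.3% (16.7 to 19.9) of all cells with at least 5 GFP UMIs. Reporter transcripts also appeared in cells that should lack them. Among 291 macrophage cells of the library (Ptprc detected and at least 5 UMIs of the complement gene C1qa), 34.7% had a tdTomato UMI, 3.44% had at least 5, 4.81% had at least 5 of GFP and 3 cells, or 1.03%, passed both limits. Their median depth was 15272 UMIs, close to the 15910 of GFP-only cells. Scores for droplets that caught a pair of cells are given below for them too.

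**Figure D1:**
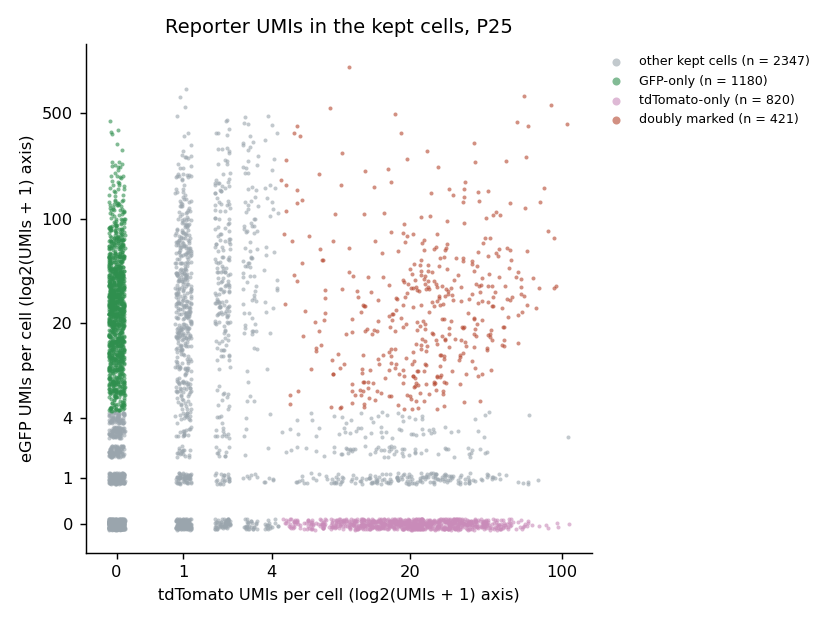
GFP UMIs (y axis) against tdTomato UMIs (x axis) per kept cell of the day 25 library, both on log2(UMIs + 1) axes with a small random offset so that cells with equal counts can be seen. The 421 doubly marked cells lie at 5 or more UMIs on both axes, the 1180 GFP-only cells at 0 tdTomato and the 820 tdTomato-only cells at 0 GFP.

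The deposited table held 99277096 UMIs over 28006 features, 8 of them reporters or transgenes. The doubly marked cells summed to 8902766 UMIs and the GFP-only cells to 20150635. Median depth was 17490 UMIs and 4074 genes in doubly marked cells against 15910 UMIs and 3751.5 genes in GFP-only cells, and median mitochondrial shares were 4.81% and 4.71%. One doubly marked cell held 162918 UMIs. Scores from simulated doublets (droplets that caught a pair of cells) placed 37 doubly marked cells, 8.79% (6.26 to 11.9), among the 256 highest of the library, against 21 GFP-only cells, 1.78% (1.10 to 2.71). Doubly marked cells thus carried more of the high scores. Only part of the results that differ without those cells is marked below, so an unmarked ratio may differ too. Of the doubly marked barcodes 2 also occurred in the Cxcl12-creER day 6 library, and 1 of the GFP-only barcodes did.

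Cells were divided into ranges by Dspp, then Ibsp, then Postn, each at 10 or more per 10,000 UMIs, which are ranges of a level and not cell types. Postn-high cells were less frequent among doubly marked cells, and cells below all 3 limits were more frequent. Postn-high cells were 94 doubly marked cells, 22.3% (18.4 to 26.6), against 509 GFP-only cells, 43.1% (40.3 to 46.0). The remaining range held 148 doubly marked cells, 35.2% (30.6 to 39.9), against 169 GFP-only cells, 14.3% (12.4 to 16.5). Ibsp-high shares overlapped within counting error, at 173 cells, 41.1% (36.4 to 46.0), and 499 cells, 42.3% (39.4 to 45.2). Seen from the other side, the doubly marked cells were 11.1% of Postn-high, 16.2% of Ibsp-high and 38.9% of remaining cells with GFP.

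The GFP cells with 1 to 4 tdTomato UMIs lay between the groups in their Postn-high share, but not in their Ibsp-high and remaining shares. They were 56.0% Ibsp-high, 34.6% Postn-high and 8.96% remaining, with a median depth of 21322 UMIs, the deepest of the groups. The tdTomato-only cells were 9.51% Ibsp-high, 35.2% Postn-high and 55.2% remaining. Within the doubly marked cells, those with 5 to 19 tdTomato UMIs were 14.0% Postn-high and 44.0% remaining, and those with 20 or more were 26.9% and 30.3%, while the Ibsp-high share was 40.0% and 41.7%. Cells near the limits were not rare. From 10 to under 20 per 10,000 lay 17 doubly marked and 36 GFP-only cells for Ibsp and 25 and 103 for Postn, and from 5 to under 10 lay 15 and 30 for Ibsp and 28 and 103 for Postn.

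**Figure D2:**
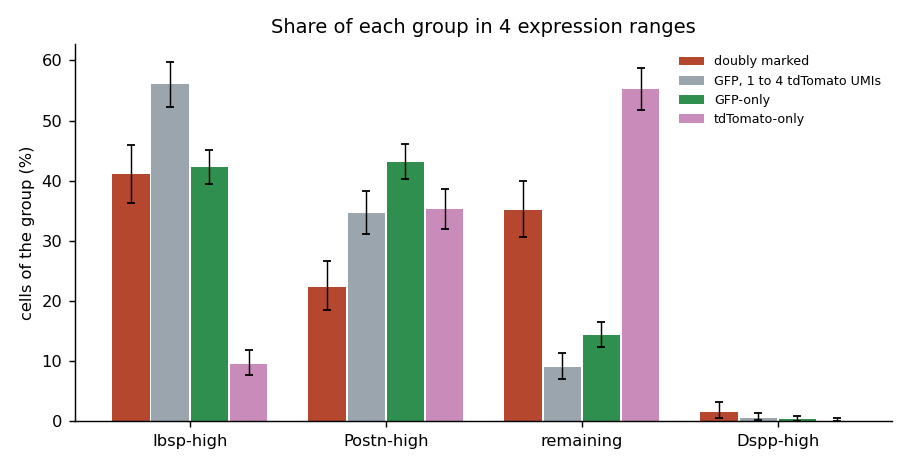
Share of cells in percent (y axis, bars from 0) in the Ibsp-high, Postn-high, remaining and Dspp-high ranges (x axis) for doubly marked cells, GFP cells with 1 to 4 tdTomato UMIs, GFP-only cells and tdTomato-only cells, with exact 95% counting intervals as error bars. The remaining range stands at 35.2% in doubly marked and 14.3% in GFP-only cells, and the Postn-high range at 22.3% and 43.1%.

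The markers within each range followed its label in part. Median Aspn was 38.7 per 10,000 UMIs in doubly marked and 51.4 in GFP-only Postn-high cells, and 0 in both groups of the Ibsp-high and remaining ranges. Median Ibsp was 0 in both groups of the Postn-high and remaining ranges, and median Postn in Ibsp-high cells was 5.21 in doubly marked and 6.74 in GFP-only cells. Median osteocalcin (Bglap) in Ibsp-high cells was 39.2 in doubly marked and 116 in GFP-only cells. Summed over cells the gap was small. The lowest log2 ratio of doubly marked over GFP-only among the 11 osteoblast or cementoblast markers, Bglap included, was -0.21. In the remaining range the list of 10 dental pulp markers stood at a median sum of 31.1 per 10,000 UMIs in both groups, and the ligament list of 11 markers at 2.87 in doubly marked and 3.34 in GFP-only cells.

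Dspp-high cells, the odontoblast range, were very few. They were 6 of 421 doubly marked cells, 1.43% (0.525 to 3.08), and 3 of 1180 GFP-only cells, 0.254% (0.0525 to 0.741), among 19 in all kept cells of the library. None of 820 tdTomato-only cells and none of 291 macrophage cells reached the limit. The doubly marked share was the higher one, and the intervals overlap. Because Dspp defined the range, its level is a description.

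The 6 doubly marked Dspp-high cells, numbered here by falling Dspp, differed widely in it. Dspp was 216, 142 and 114 per 10,000 UMIs in the first 3 cells and 23.5, 21.4 and 11.6 in the others, and it was 135, 104 and 24.3 in the 3 GFP-only cells. Phex, a membrane peptidase needed for mineral formation, was 23.7, 9.81 and 9.29 in the first 3 doubly marked cells, 5.18, 5.16 and 3.99 in the others and 17.1, 18.6 and 5.64 in GFP-only cells. The intermediate filament gene Nes, a marker of odontoblasts, was found in all 9 cells, from 3.48 to 14.8 in doubly marked and from 4.48 to 7.48 in GFP-only cells. All 9 also made Col1a1, from 614 to 1212 and from 1123 to 1155 per 10,000 UMIs.

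The 3 doubly marked cells with less Dspp carried a gene that the GFP-only cells did not show. Ifitm5, a membrane protein gene of bone-forming osteoblasts, was 4.69, 14.3 and 8.71 per 10,000 UMIs in these 3 cells, 0, 0 and 1.16 in the other doubly marked cells and 0 in every GFP-only cell. Ibsp was 0.741, 7.15 and 11.3 in the same 3 cells and at most 2.32 in the others. Of the 6 doubly marked cells, 2 held 10 or more per 10,000 UMIs of the erythroid list and 1 of the mural list, against 0 of the 3 GFP-only cells. Without cells rich in the 5 other types Dspp over all doubly marked cells was 98.5 CPM, where it was 146 CPM with them. Doubly marked cell 4 was the single Dspp-high cell of these groups among the highest doublet scores. Doubly marked cell 2 held 143 per 10,000 UMIs of Mgp, which was at most 0.581 in the other 8 cells, and Col3a1 was 102 in that cell, 61.5 in cell 4 and at most 1.72 in the rest. Over all cells, 5 cells held 94.9% of the Dspp UMIs of all doubly marked cells and 92.3% of those of GFP-only cells. Dspp stands on chromosome 5 from 104170712 to 104180127, plus strand (GRCm38).

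Gene levels were then set side by side as CPM, the summed UMIs of a gene scaled to the same total for every group, with the log2 ratio taken after adding 1 CPM. Over all cells 5815 genes had at least 20 CPM and 50 UMIs in the higher group. Doubly marked cells were 2-fold or more higher for 102 of them (1.75%) and 2-fold or more lower for 27 (0.464%), and the median log2 ratio of all genes was 0.03. Among the higher genes were Coch, Wnt10a and Bambi, and among the lower ones Aspn and Spp1, which encodes osteopontin of bone.

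Coch, an extracellular matrix protein gene best known from the inner ear, had 264 CPM in doubly marked and 55.8 CPM in GFP-only cells, 4.73-fold higher (4.40 to 5.08). It stood at 199 CPM in tdTomato-only cells and at 6.51 CPM in macrophage cells. After each cell was thinned to 3000 UMIs, 21.4% of doubly marked, 5.98% of GFP-only and 1.04% of macrophage cells had a Coch UMI, against 37.8% and 11.9% of the first 2 groups unthinned. Thinning left out 0 doubly marked, 10 GFP-only and 3 macrophage cells. In each other setting tried the log2 ratio lay between 2.06 and 2.94.

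A further 5 of the 12 highest ratios were spread over more cells as well. Pcp4, a calmodulin-binding peptide gene, had 106 against 25.9 CPM, 4.09-fold (3.67 to 4.56), and 279 CPM in tdTomato-only cells. Cd24a, a cell surface glycoprotein gene, had 61.0 against 15.7 CPM, 3.88-fold (3.37 to 4.47), although macrophage cells carried more, 86.6 CPM. Fras1, a basement membrane protein gene, was 3.17-fold higher (2.76 to 3.65), the non-coding Dlx6os1 3.05-fold (2.66 to 3.50) and the axon guidance gene Ntng1 2.99-fold (2.66 to 3.36). For each of these 5 genes the log2 ratio stayed at 1.22 or above in every setting tried.

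The other 6 of the 12 highest ratios rested on a handful of cells. For the neutrophil genes Ngp, Camp, S100a8 and S100a9, 93% to 95.8% of doubly marked UMIs lay in 5 cells. The neutrophil list (6 genes, Csf3r at 0 in doubly marked cells) summed to 493 CPM against 58.2 CPM, ran from 0 to 2513 per 10,000 UMIs in doubly marked and from 0 to 141 in GFP-only cells, and 1 cell of each group held 10 or more. Without the 5 doubly marked and 14 GFP-only cells with 10 or more per 10,000 UMIs of neutrophil, erythroid, Schwann, macrophage or endothelial markers, the log2 ratios were 0.37 for Ngp, 0.09 for Camp, 0.14 for S100a8 and -0.19 for S100a9. Slpi, a protease inhibitor gene, kept 2.41 there but had -0.31 among cells of 10000 to 30000 UMIs. Dspp itself, at 146 against 26.5 CPM, was described above. With those cells left out, 96 of the 102 genes were still 2-fold higher and 22 of the 27 still 2-fold lower.

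**Figure D3:**
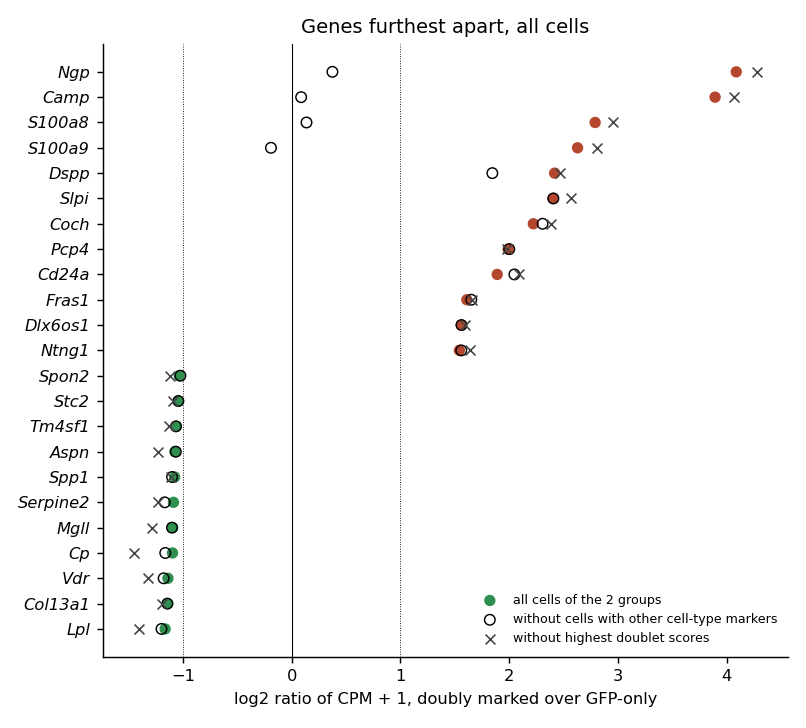
Log2 ratio of doubly marked over GFP-only cells (x axis, 1 CPM added) for the 12 highest and 11 of the lowest genes over all cells (y axis), as filled points, red where higher and green where lower. Open circles leave out cells rich in markers of 5 other cell types, crosses leave out the highest doublet scores, and dotted lines mark 2-fold. Ngp, Camp, S100a8 and S100a9 move close to 0 in the open circles, and Coch does not.

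Signals of the Wnt and BMP families were mostly on the higher side. Among 11 Wnt ligands 4 had enough counts, 1 was 2-fold higher (1.75% of all genes were) and their median log2 ratio was 0.63. Wnt10a, a ligand needed for tooth and root formation, had 91.7 against 34.6 CPM, 2.65-fold (2.39 to 2.93), and 47.2 CPM in tdTomato-only cells. Wnt6 had 43.7 against 21.6 CPM, 2.02-fold (1.76 to 2.32). Of 26 Wnt antagonists and targets 14 had enough counts with a median of 0.27, and they split: the antagonist Sostdc1 was 2.43-fold higher (1.98 to 2.97), while the antagonist Dkk1 had 15.2 against 44.8 CPM, 2.96-fold lower (2.46 to 3.57).

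Of 21 BMP pathway genes 15 had enough counts, 2 were 2-fold higher (1.75% of all genes were), none 2-fold lower, and the median was 0.18. Bambi, a decoy receptor that dampens BMP and TGF-beta signals, had 687 against 298 CPM, 2.30-fold (2.22 to 2.39), with medians over cells of 3.13 and 0.83 per 10,000 UMIs. The ligand genes Bmp7 and Bmp2 were 2.19-fold (1.95 to 2.47) and 1.94-fold (1.82 to 2.07) higher, and the target gene Id1 1.73-fold (1.65 to 1.81). The transcription factor genes Sox9, Msx2 and Sp6 were 2.22-fold (2.06 to 2.38), 2.14-fold (1.93 to 2.37) and 2.53-fold (2.12 to 3.03) higher, although the medians of the osteogenic and of the dental mesenchyme factor lists were 0.09 and 0.10.

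Matrix genes went both ways. Of 11 ligament markers 8 had enough counts, 1 was 2-fold lower (0.464% of all genes were), none 2-fold higher and the median was -0.54. Aspn had 1470 against 3095 CPM, 2.11-fold lower (2.07 to 2.15), and Spon2, a matrix protein gene, 233 against 478 CPM, 2.05-fold lower (1.96 to 2.15). Col3a1, the collagen of elastic connective tissue, was 1.64-fold lower (1.63 to 1.65), Mgp, an inhibitor of calcification, 2.04-fold lower (1.98 to 2.11), and Col13a1, a transmembrane collagen, 2.21-fold lower (2.08 to 2.36). Col1a1 was nearly level at 39947 against 35931 CPM, and its ratio changed direction between settings (log2 -0.20 to 0.33). On the higher side the microfibril gene Fbn2 had 136 against 50.4 CPM, 2.69-fold (2.48 to 2.93). The phosphate transporter gene Slc20a2 was 2.38-fold (2.19 to 2.58) and the sphingomyelinase gene Smpd3, needed for mineralisation, 1.93-fold higher (1.83 to 2.03).

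Of the driver genes, Cxcl12 had 191 CPM in doubly marked and 127 CPM in GFP-only cells, 1.5-fold (1.41 to 1.59), and 699 CPM in tdTomato-only cells. After thinning 23.3% of doubly marked and 18.9% of GFP-only cells had a Cxcl12 UMI, against 7.64% of macrophage cells. The Cre transgene itself was sparse, with 34 UMIs in doubly marked cells (3.82 CPM), 5 in GFP-only cells (0.248 CPM) and 15.6 CPM in tdTomato-only cells. Its ratio of 15.4 (5.99 to 50.4) rests on those counts, and all 5 UMIs of the GFP-only group came from 1 cell.

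Since the groups held the ranges in different shares, they were next compared within each. In Ibsp-high cells 5522 genes had enough counts, and doubly marked cells were 2-fold higher for 67 (1.21%) and 2-fold lower for 32 (0.58%), with a median log2 ratio of -0.01. Doubly marked Ibsp-high cells had less Spp1, Dkk1, Serpine2 and Vdr, and more Col1a1, Wnt10a and Bambi. Ibsp itself set the range, and was 15320 against 14004 CPM.

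Spp1 had 11228 CPM in doubly marked and 27036 CPM in GFP-only Ibsp-high cells, 2.41-fold lower (2.38 to 2.43). Its median over cells was 4.12 against 25.3 per 10,000 UMIs and its upper quartile 95.1 against 283, so the spread within each group was far wider than the gap between them. After thinning 64.2% and 68.3% of cells had a UMI, so detection differed little. The fold depended on few cells in part, since 5 cells held 41.2% of doubly marked Spp1, and the log2 ratio lay between -1.33 and -0.81 over all settings. Dmp1, a matrix protein of osteocytes whose gene also lies on chromosome 5, had 604 against 991 CPM, 1.64-fold lower (1.57 to 1.72). Mepe, of the same family, was 1.63-fold higher (1.39 to 1.92), with 99.3% of doubly marked UMIs in 5 cells.

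The stretches just upstream of Spp1 and Dmp1 are shown because both lie on chromosome 5 and were lower in doubly marked Ibsp-high cells. Ibsp, which set the range, starts between them at 104299287 and was not lower, and its own stretch held 0 matches of the motif below. The stretch of Coch is shown because it was among the genes most above GFP-only cells. Each is the 250 bases before a RefSeq transcript start in GRCm38.p6, plus strand, with ACCACA, the core motif bound by RUNX factors of bone and tooth, in capitals (searched as ACCACA and as its reverse complement TGTGGT).
Spp1: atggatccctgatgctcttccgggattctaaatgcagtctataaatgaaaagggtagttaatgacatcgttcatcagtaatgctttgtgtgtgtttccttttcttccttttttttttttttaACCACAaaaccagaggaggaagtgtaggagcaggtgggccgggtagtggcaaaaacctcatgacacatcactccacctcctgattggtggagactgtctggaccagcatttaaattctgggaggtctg
Dmp1: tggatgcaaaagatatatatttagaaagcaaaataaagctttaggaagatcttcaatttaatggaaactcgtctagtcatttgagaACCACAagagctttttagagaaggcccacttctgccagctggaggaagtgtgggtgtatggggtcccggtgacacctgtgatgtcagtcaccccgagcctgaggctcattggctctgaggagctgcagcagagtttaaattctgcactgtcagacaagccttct
Coch: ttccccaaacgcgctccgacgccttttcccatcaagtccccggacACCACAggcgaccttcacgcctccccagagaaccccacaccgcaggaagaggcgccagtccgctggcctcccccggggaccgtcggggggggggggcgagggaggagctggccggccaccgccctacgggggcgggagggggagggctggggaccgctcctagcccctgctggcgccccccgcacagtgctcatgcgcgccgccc
The starts shown for Spp1 and Dmp1 are those nearest the annotated gene starts. The 3 stretches lie at chr5:104434861-104435110, chr5:104202367-104202616 and chr12:51593091-51593340. Each held 1 match, the other RefSeq start of Spp1 and that of Dmp1 held 0, and 4614 of 32851 promoters of that length, 14.0%, held at least 1. The gene bodies run from 104435118 to 104441050 for Spp1, from 104202613 to 104214102 for Dmp1 and, on chromosome 12, from 51593341 to 51605771 for Coch. The matches describe these letters and were tied to no measurement.

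Among the named genes, which leave out haemoglobin genes, Dkk1 was the lowest in doubly marked Ibsp-high cells, with 24.9 against 106 CPM, 4.28-fold lower (3.47 to 5.32). Thinned to equal depth, 2.89% and 13.6% of cells had a UMI, and none of the macrophage cells. The cytokine subunit gene Il12a was 3.68-fold lower (2.78 to 4.97), Serpine2, a protease inhibitor gene, 2.84-fold (2.68 to 3.02), the vitamin D receptor gene Vdr 2.70-fold (2.36 to 3.11), the lipase gene Mgll 2.51-fold (2.11 to 3.00) and Lifr, a cytokine receptor gene, 2.46-fold (2.28 to 2.67). All 6 were lower in every setting tried, with log2 ratios between -3.25 and -0.97. In cells of rising tdTomato class (0, 1 to 4, 5 to 19, 20 or more UMIs), Dkk1 was 106, 98.1, 45.9 and 10.3 CPM and Vdr 169, 121, 72.6 and 55.5 CPM, each lower at every step. Spp1 did not follow such an order, at 27036, 16523, 5125 and 15454 CPM, and nor did Serpine2, at 935, 553, 268 and 371 CPM. The classes held 499, 394, 60 and 113 cells. Dkk1, Vdr and Serpine2 were named for their low ratio of 5 or more over 0 tdTomato UMIs. A lower level in the upper classes than in class 0 was thus set in advance. The place of the 1 to 4 class, and the order of the 5 to 19 and 20 or more classes, were not.

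**Figure D4:**
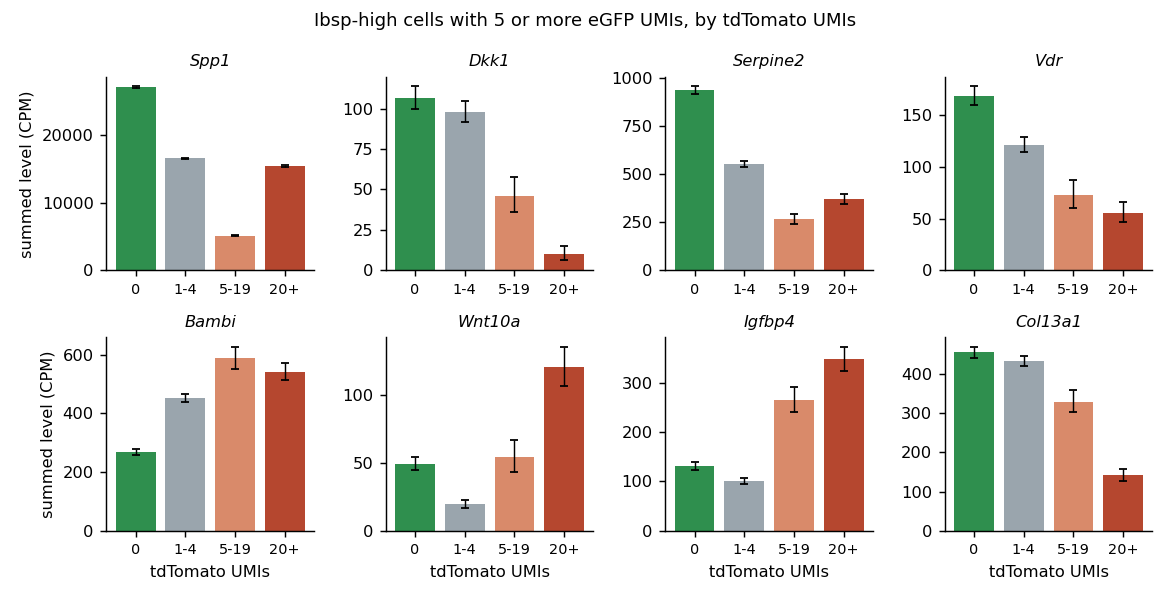
Summed level in CPM (y axes, bars from 0) of 8 genes in Ibsp-high cells with at least 5 GFP UMIs, by tdTomato UMIs (x axis: 0, 1 to 4, 5 to 19, 20 or more), with exact 95% counting intervals as error bars. Dkk1 goes from 106 to 10.3 CPM, each bar lower than the one before, while Spp1 is lowest, at 5125 CPM, in the class of 5 to 19 UMIs. Dkk1 was named for its low ratio of 5 or more over 0 tdTomato UMIs, so part of this fall was set in advance.

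Regulators of osteoclasts, the bone-resorbing cells, were mixed in the same cells. All 6 listed genes were measured and 5 had enough counts, 2 of them 2-fold lower (0.58% of all genes were), with a median of -0.71. Csf1, a growth factor for osteoclast precursors, had 28.7 against 68.3 CPM, 2.38-fold lower (1.94 to 2.94), and Tnfsf11 (RANKL), the osteoclast differentiation signal, 15.5 against 32.7 CPM, 2.11-fold lower (1.60 to 2.84), with 78.7% of the doubly marked UMIs in 5 cells. The parathyroid hormone receptor gene Pth1r was 1.64-fold lower (1.53 to 1.75), with medians of 1.13 and 3.50 per 10,000 UMIs. Tnfrsf11b (osteoprotegerin), the decoy of RANKL, was 1.17-fold higher (1.05 to 1.30), and Pthlh, a ligand of that receptor, had 294 against 172 CPM, 1.71-fold higher (1.58 to 1.85).

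Collagen genes in Ibsp-high cells were mostly higher. Of 16 collagens 12 had enough counts, 11 lay above 0, none reached 2-fold and the median was 0.37. Col1a1 had 52390 against 34707 CPM, 1.51-fold (1.5 to 1.52), with medians of 302 and 211 per 10,000 UMIs. The cross-linking enzyme gene Loxl2 was 1.72-fold higher (1.62 to 1.83) and P4ha2, a collagen hydroxylase gene, 1.74-fold (1.53 to 1.98). Col13a1 went the other way, with 218 against 455 CPM, 2.09-fold lower (1.94 to 2.25).

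Of the Wnt ligands 5 of 11 had enough counts in Ibsp-high cells, 4 lay above 0 and the median was 0.82. Wnt6 was 2.04-fold (1.63 to 2.55), Wnt10a 1.89-fold (1.64 to 2.18) and Wnt7b 1.81-fold (1.41 to 2.32) higher, Wnt5a was level at 176 against 175 CPM, and Wnt5b had 30.5 against 36.2 CPM, with an interval that included a ratio of 1. The feedback inhibitor Nkd1, a target of the pathway, was 2.39-fold higher (1.79 to 3.20). Bambi was 2.09-fold (1.97 to 2.22) and Bmp7 1.96-fold (1.65 to 2.32) higher.

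Of the 10 genes of the insulin-like growth factor axis (ligands, receptors and binding proteins) 9 had enough counts and the median was 0.28. Of these 3 binding proteins were 2-fold higher, where 1.21% of all genes were. Igfbp4 had 314 against 130 CPM, 2.41-fold (2.22 to 2.62), with 35.8% and 22.4% of thinned cells positive, but macrophage cells carried 368 CPM. Igfbp6 was 3.23-fold higher (2.51 to 4.16). Igfbp3 was 5.94-fold higher (4.46 to 7.99) with 87.6% of the doubly marked UMIs in 5 cells. The smooth muscle actin gene Acta2 and its partner Tagln were 3.67-fold (3.04 to 4.45) and 3.17-fold (2.53 to 3.99) higher, with 80.7% and 75% of doubly marked UMIs in 5 cells. The mural list of 8 markers, which includes both, summed to 159 against 84.2 CPM, ran to 39.5 per 10,000 UMIs in doubly marked and 21.0 in GFP-only cells, and reached 10 in 4 of 173 and 3 of 499 cells, with Myh11 at 0 in GFP-only cells. Its part in these ratios was not tested.

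Few genes of interferon response, cell division and early response were 2-fold lower in these cells, where 0.58% of all genes were. Of 13 interferon response genes 6 had enough counts, 5 lay below 0, none was 2-fold lower and the median was -0.61. Irf1 was 1.78-fold (1.60 to 1.99), H2-K1 1.76-fold (1.65 to 1.89) and B2m 1.39-fold (1.32 to 1.46) lower. Of 20 cell cycle genes 11 had enough counts with a median of -0.52, and 1 was 2-fold lower: Mki67, 2.20-fold lower (1.62 to 3.04) with 88.2% of doubly marked UMIs in 5 cells. Of 22 immediate early and stress genes 21 had enough counts, 1 was 2-fold lower, 3 lay above 0 and the median was -0.29. Erythroid markers were lower too, with 4 of 6 tested, all 2-fold lower with a median of -2.24, summed levels of 85.9 against 465 CPM and 1430 per 10,000 UMIs in a single GFP-only cell.

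The 6 highest ratios of Ibsp-high cells were again neutrophil genes and Slpi, in which 5 cells held at least 96.4% of the doubly marked UMIs. Lcn2 had 70.9 against 1.32 CPM with 100% in 5 cells, and its log2 ratio of 4.95 was -0.03 without cells rich in markers of other types. With such cells left out, 59 of the 67 genes were still 2-fold higher and 28 of the 32 still 2-fold lower. Without the cells of highest doublet score 33 of the 40 named 2-fold genes were still 2-fold apart.

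In Postn-high cells 5506 genes had enough counts, and doubly marked cells were 2-fold higher for 58 (1.05%) and 2-fold lower for 7 (0.127%), with a median of 0.03. The ligament list had 8 of 11 markers with enough counts, and none, Postn that set the range among them, was 2-fold apart. Aspn was 4841 against 6197 CPM, 1.28-fold lower (1.25 to 1.31), and Col1a1 was 42293 against 44262 CPM, so within this range Aspn was closer to level than over all cells.

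All 58 higher genes and 6 of the 7 lower ones were still 2-fold apart without cells rich in markers of the 5 other types, while leaving out the highest doublet scores changed more. The growth factor binder Igfbp6 had 140 against 38.2 CPM, 3.66-fold (3.14 to 4.28), Fbn2 41.5 against 8.51 CPM, 4.87-fold (3.57 to 6.67), and Slc20a2 65.3 against 18.1 CPM, 3.61-fold (2.87 to 4.53), and all 3 had log2 ratios of 1.17 or more in every setting. The secreted protease gene Prss23 was 4.42-fold higher (3.42 to 5.71) and Pcp4 9.06-fold (6.60 to 12.6), the latter with 83.8% of its UMIs in 5 cells. Igfbp4 had 744 against 409 CPM, 1.82-fold (1.72 to 1.93). Bambi was 2.17-fold higher (1.92 to 2.44), with a log2 ratio of 0.48 without the highest doublet scores.

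Without the doubly marked and GFP-only cells of highest doublet score, 16 of the 29 named 2-fold genes of Postn-high cells were still 2-fold apart and 23 kept their direction, and the counts were 20 higher and 13 lower genes. The hormone precursor gene Pmch had 108 against 8.29 CPM, with 98% of doubly marked UMIs in 5 cells. Apod, a lipid carrier gene of fibroblasts, had 470 against 80.6 CPM and a log2 ratio of 2.53, which was -1.15 without those cells. The elastic fibre gene Mfap5 went from 2.47 to -0.12 and the matrix gene Tgfbi from 1.58 to -0.02. On the lower side, Lyz2, a lysozyme gene of macrophages, had 22.1 against 50.9 CPM, 2.31-fold lower (1.72 to 3.16), beside 9426 CPM in macrophage cells. Phlda1 was 2.22-fold (1.80 to 2.76), Cxcl1 2.06-fold (1.73 to 2.46) and the metallothionein gene Mt1 1.65-fold lower (1.51 to 1.81).

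In the remaining range 6440 genes had enough counts, and doubly marked cells were 2-fold higher for 24 (0.373%) and 2-fold lower for 113 (1.75%), with a median of -0.01. Several genes of the odontoblast list, Dmp1 and Ifitm5 of bone cells among them, were higher in doubly marked cells of this range, and several ligament markers were lower. Of 12 odontoblast markers 8 had enough counts, 3 were 2-fold higher (Dmp1, Smpd3 and Ifitm5) and the median was 0.93. Of 11 ligament markers 7 had enough counts, 4 were 2-fold lower, namely Aspn, S100a4, the tendon gene Tnmd and Postn, whose limit helped set the range. The mineral matrix genes did not move as a group: Dmp1 had 158 against 71.7 CPM with 91% of doubly marked UMIs in 5 cells, and a log2 ratio of -1.36 among cells of 10000 to 30000 UMIs, while Spp1 had 1134 against 2742 CPM, 2.42-fold lower (2.32 to 2.53), with 79.1% in 5 cells and a log2 ratio of 0.12 from 20 GFP UMIs.

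Coch had 850 against 406 CPM in the remaining range, 2.10-fold higher (1.95 to 2.26), with quartiles of 0.76, 2.03 and 5.29 per 10,000 UMIs in doubly marked and 0, 0.941 and 3.83 in GFP-only cells. Part of its gap over all cells was thus present within this range, and the groups overlapped widely. Sgms2, a sphingomyelin synthase gene of bone mineral formation, had 294 against 108 CPM, 2.72-fold (2.37 to 3.13), and Smpd3, which cleaves sphingomyelin, 269 against 120 CPM, 2.25-fold (1.96 to 2.58). Pthlh was 2.55-fold (1.94 to 3.38), the ligand gene Bmp4 2.15-fold (1.64 to 2.85) and Wnt10a 1.85-fold (1.55 to 2.21) higher. Cgref1, a growth regulator gene, was 2.81-fold (2.16 to 3.68), the cartilage-type collagen gene Col11a2 2.44-fold (2.03 to 2.94), the microfibril gene Mfap4 2.44-fold (1.78 to 3.37) and the developmental transcription factor gene Sox11 2.34-fold (1.64 to 3.39) higher. Col1a1 had 16229 against 8440 CPM, 1.92-fold (1.89 to 1.95), but medians of 30.7 and 27.6 per 10,000 UMIs, so the gap lay in the upper part of the distribution, with upper quartiles of 80.3 and 50.5.

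Bambi and Cxcl12 were close to level in the remaining range. Bambi had 1279 against 1146 CPM, 1.12-fold (1.06 to 1.17), and Cxcl12 457 against 524 CPM, 1.15-fold lower (1.06 to 1.24), with a log2 ratio that reached 0.01 in another setting. Levels of Cxcl12 in Ibsp-high cells were below those of remaining cells, at 55.9 CPM in doubly marked and 48.4 CPM in GFP-only cells. Without cells rich in markers of other types, Postn-high cells had 133 CPM (doubly marked) and 86.9 CPM (GFP-only) of Cxcl12. Its log2 ratio there was 0.61. In the same setting the log2 ratio of Bambi was 1.08 in Ibsp-high and 1.11 in Postn-high cells. The Postn-high gap of Bambi was smaller without the highest doublet scores, as given above. Over all cells, the higher Bambi and Cxcl12 of doubly marked cells stood beside these gaps within ranges and beside the larger share of remaining cells among them. The part of each was not tested.

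The lower genes of the remaining range included genes of matrix and its turnover. Mgp had 59.9 against 686 CPM, 11.4-fold lower (9.69 to 13.6), S100a4, a calcium-binding protein gene of fibroblasts, 7.40-fold (5.89 to 9.41), Col5a3 6.82-fold (4.64 to 10.4), Aspn 6.05-fold (5.01 to 7.36) and Wisp2, a matricellular gene, 10.0-fold (5.80 to 18.8). Median Aspn was 0 per 10,000 UMIs in both groups, with upper quartiles of 0.452 in doubly marked and 0.736 in GFP-only cells. Its gap thus lay in the upper part of the distribution. The 3 chains of collagen VI, Col6a1, Col6a2 and Col6a3, were 2.53-fold (2.32 to 2.75), 2.57-fold (2.33 to 2.85) and 2.84-fold lower (2.52 to 3.20). Of 14 collagens with enough counts 6 were 2-fold lower, where 1.75% of all genes were. The collagenase gene Mmp13 was 4.02-fold (3.37 to 4.83), Serpine2 4.53-fold (3.69 to 5.61) and the mesenchymal transcription factor gene Prrx1 2.19-fold lower (1.84 to 2.61). Postn was also 2.19-fold lower (1.85 to 2.61), under the limit that set the range. These ratios were negative in every setting tried.

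Some markers of other cell types, and some cell cycle and interferon response genes, were also lower in doubly marked cells of this range. Of 8 mural markers 4 had enough counts, 3 were 2-fold lower and the median was -1.17, with summed levels of 69.0 and 146 CPM and 1 and 4 cells at 10 or more per 10,000 UMIs (Myh11 at 0 in GFP-only cells). Of 20 cell cycle genes 16 had enough counts and 4 were 2-fold lower, as were 3 of 10 interferon response genes. Over all genes of this range 1.75% were 2-fold lower. One GFP-only cell and no doubly marked cell was rich in Schwann markers. Their part in the lower ratios was not tested. The chemokine gene Cxcl10 had 5.12 against 53.5 CPM with 95.7% in 5 GFP-only cells. The erythroid list of 6 genes summed to 57.5 CPM in doubly marked and 3759 CPM in GFP-only cells, where 1 cell reached 3682 per 10,000 UMIs. Epithelial markers went the other way. Of the 7 markers 2 had enough counts, both lay above 0, 1 was 2-fold higher (0.373% of all genes were) and the median was 1.18. Epcam was at 0 by the rule that kept the cells, and Amelx was at 0 in both groups. The list was mostly the enamel matrix gene Ambn, with 580 against 436 CPM. It reached 10 per 10,000 UMIs in 23 of 148 doubly marked and 22 of 169 GFP-only cells. Without 5 GFP-only and 0 doubly marked cells rich in markers of the 5 other types, 23 of the 24 genes were still 2-fold higher and 96 of the 113 still 2-fold lower.

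**Figure D5:**
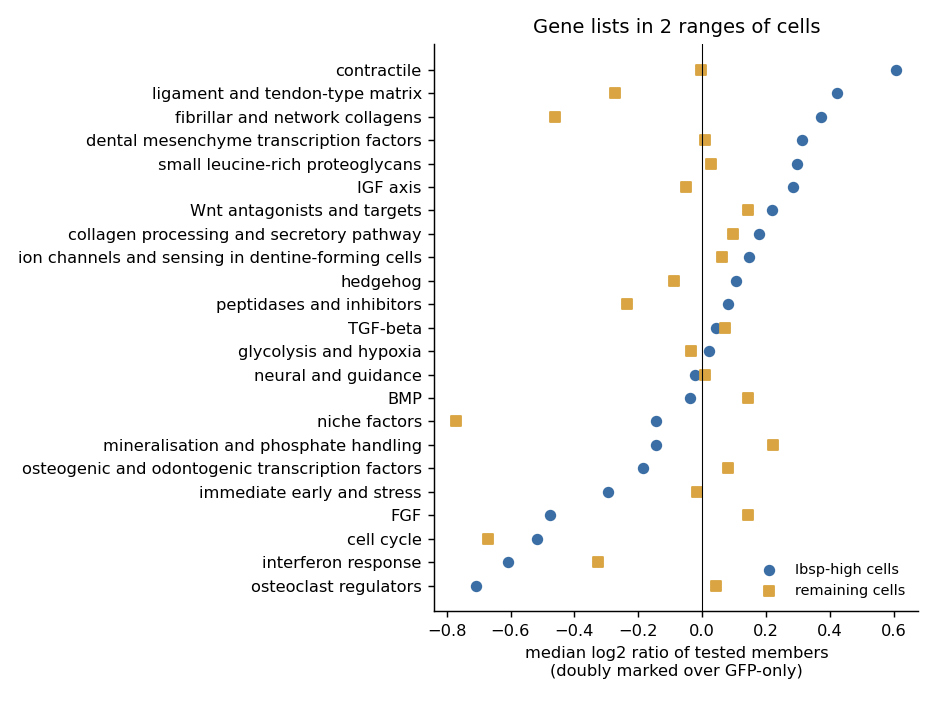
Median log2 ratio of doubly marked over GFP-only cells (x axis) for 23 pathway lists (y axis) with at least 4 members tested, in Ibsp-high cells (circles) and remaining cells (squares). The osteoclast regulators stand at -0.71 and 0.04, the collagens at 0.37 and -0.46, and the cell cycle genes at -0.52 and -0.67.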

How the data were processed

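The values deposited by the authors are counts of UMIs for each gene in each barcode, whole numbers with no normalisation, and the matrix header names software version 3.1.0. Per the submitters' processing notes the tools were Cell Ranger and Seurat and the build was mm10, with settings not given in the sources used here. Per the labels' protocols the libraries were 10x 3′ version 3. The members and gene lists were chosen with earlier results of these data known.

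The gene minimum of 500 left out 741 barcodes and the mitochondrial limit of 15% another 295, and 889 of the rest held a UMI of Ptprc, Pecam1 or Epcam. Counts were summed over the cells of a group and scaled to CPM, with exact Poisson, Clopper-Pearson and conditional binomial 95% intervals, in Python 3.11.15 with scipy 1.17.1 and numpy 2.4.6; tables used pandas 2.3.3, doublet scores scikit-learn 1.9.0 and figures matplotlib 3.10.9. UMIs of 1 cell share a library and a droplet, so the intervals are too narrow for a comparison of mice. Genes needed 20 CPM and 50 UMIs in the higher group. The ratio calculation was tested on simulated data.

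Named genes were the reporters, Cxcl12, Col1a1 and Dspp, the 12 highest and 12 lowest log2 ratios over all cells and the 6 of each within a range (from 50 CPM and 50 UMIs, leaving out Gm and Rik gene models and mitochondrial, ribosomal, haemoglobin and sex-linked genes), and for each list at most 5 of the largest ratios. Named after their values were seen were the Cre transgene, Ambn, Serpine2, Coch, Bambi and Col13a1 within ranges, the genes shown for single Dspp-high cells and the promoters. The remaining range, the macrophage reference and the lists that define cells rich in markers of other types were also set after the data were seen. With 6 and 3 Dspp-high cells, the summed gene ratios of that range were computed but are left out. The alternatives planned for them were not run, and values per cell are given. Results of 2 genes are not reported here.

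Doublets were scored with a Scrublet-like scheme (2 simulated doublets per cell, 2000 variable genes, 30 components), and the 256 highest scores, set by a rate of 0.8% per 1000 cells, were kept in the main values and left out as an alternative. Ccn4, Ccn2 and Scn2a were matched under older symbols. Gene positions are from GENCODE (GRCm38) and upstream sequences from RefSeq (GRCm38.p6), which matched 3 of the 3 genes printed.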

Additional observations from a re-analysis of the deposited data

How the results depend on the processing

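With 1 library there was no replicate to leave out, and the cells can show counting error only. No paired analysis was possible because each group was part of 1 library and no result came from a test. Of the 210 alternative values of shares, counts and list counts, 148 stayed within their limits (the 95% counting interval for shares, 1.5 times for counts) and 62 moved. No Dspp-high share moved beyond its wide interval. The alternatives that leave out cells with other markers, and the remaining range, were chosen after seeing the data; the 7 lists, which add mural and osteoclast markers and take 80 of 421 and 340 of 1180 cells, were tried first.

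Below, each count reads against its main value given first. Ibsp-high shares were 51.8% (doubly marked) and 47.0% (GFP-only) from 20 GFP UMIs, 36.1% and 38.0% among cells of 10000 to 30000 UMIs, and for GFP-only cells 47.4% with up to 4 tdTomato UMIs and 53.2% without cells of the 7 lists. Postn-high shares were 26.9% in doubly marked cells from 20 tdTomato UMIs and 12.6% without the 7 lists, and in GFP-only cells 39.9% with up to 4 tdTomato UMIs, 48.3% at 10000 to 30000 UMIs and 28% without the 7 lists. Over all cells the 102 higher genes were 61 from 20 GFP UMIs, 170 at 10000 to 30000 UMIs, 190 from 5 CPM and 10 UMIs and 53 with 10 CPM added; the 27 lower genes were 69 at that depth, 55 thinned, 43 by means of single cells, 43 from 5 CPM and 13 with 10 CPM added. In Ibsp-high cells the 67 higher genes were 130 from 20 tdTomato UMIs, 116 at that depth, 14 thinned, 173 from 5 CPM and 37 with 10 CPM added; the 32 lower genes were 76, 100, 78, 90 and 17 in the same order, 21 with up to 4 tdTomato UMIs, 52 by means of single cells and 55 without the highest doublet scores. In Postn-high cells the 58 higher genes were 27 at that depth, 3 thinned, 20 without the highest doublet scores and 226 from 5 CPM; the 7 lower genes were 11, 67, 13 and 51 in the same order, 13 from 20 tdTomato UMIs, 0 with 10 CPM added and 31 without the 7 lists. In remaining cells the 24 higher genes were 37 from 20 tdTomato UMIs, 13 with up to 4 tdTomato UMIs, 9 thinned, 120 from 5 CPM and 13 with 10 CPM added; the 113 lower genes were 58 from 20 GFP UMIs, 27 thinned, 306 from 5 CPM, 70 with 10 CPM added and 71 without the 7 lists.

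Lists whose median lay 0.3 or more from that of all genes, a limit set after the data were seen, numbered 6 over all cells (11 at 10000 to 30000 UMIs, 3 from 5 CPM), 10 in Ibsp-high cells, 3 in Postn-high cells (6 from 20 tdTomato UMIs, 5 without the highest doublet scores, 7 from 5 CPM) and 5 in remaining cells (10 from 20 GFP UMIs, 3 with 10 CPM added, 3 without the 7 lists). Log2 ratios of named genes that changed sign included, from 20 GFP UMIs, -0.10 for Camp, -1.09 for S100a8 and -1.42 for S100a9 over all cells, -0.16 for Lcn2 in Ibsp-high cells and 0.12 for Spp1 in remaining cells. At 10000 to 30000 UMIs they included -0.31 and -1.23 for Slpi over all and Ibsp-high cells, -1.33 for Pmch in Postn-high cells and -1.36 for Dmp1 in remaining cells. Without the highest doublet scores they included -1.15 for Apod, -0.12 for Mfap5 and -0.0192 for Tgfbi in Postn-high cells. Without cells of the 5 lists they included -0.19 for S100a9 and, in Ibsp-high cells, -0.0328 for Lcn2, and without the 7 lists -0.14 for Camp and -0.0906 for S100a9. These are examples, and further named genes changed sign. Of the 40 named 2-fold genes of Ibsp-high cells, 34 kept their direction from 20 GFP UMIs. Without cells of the 5 lists 35 did, and without the 7 lists 37 did. The causes were not tested.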
